A study of Mus musculus with 6 samples.

Results

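ATP-dependent chromatin remodellers are multi-subunit machines that slide, evict or restructure nucleosomes. The genes described here code for 44 subunits of 4 groups of these machines. They are 18 of SWI/SNF, 13 of INO80 and the related SRCAP and EP400 complexes, 9 of NuRD and 4 other CHD family ATPases (Chd1, Chd2, Chd7 and Chd8). They were chosen by symbol, as named subunits of these complexes. No value entered the rule, but earlier results of these data were known when it was made. All 44 were listed in the total RNA libraries, among 9844 genes listed in every library, and they carried 593 of the 68322 introns listed in every library. The cells were E14 mouse embryonic stem cells of 129/Ola background, grown in serum with leukaemia inhibitory factor and transfected by Lipofectamine 2000 with Son siRNA or, in the control group, control siRNA. RNA was taken 24 hours after transfection. Each group had 2 samples of total RNA, depleted of ribosomal RNA, and 1 sample of polyadenylated RNA read as Nanopore cDNA. The labels do not say that replicates came from separate cultures, so p-values measure the spread between these samples, which may be technical.

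Son codes for a large RNA-binding protein of nuclear speckles that takes part in the splicing of many introns. In stem cells, SWI/SNF assembles around the ATPase Smarca4 and works with pluripotency factors at enhancers, and NuRD couples the ATPase Chd4 to histone deacetylases. The INO80 and SRCAP families are linked to the exchange of the histone variant H2A.Z in nucleosomes. The question put to the data was whether transcripts of these subunits changed in splicing or in amount after the knockdown.

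Depth, as split reads at 5′ junctions, was 16012286 and 10640247 for the controls and 14978479 and 10556187 for the knockdown. Son itself had 281 and 312 CPM (spliced reads scaled to a library total of 1000000) in the controls against 94.6 and 102 in the knockdown, a log2 fold change of -1.61 (SE 0.09, adjusted p = 3.72e-10, edgeR quasi-likelihood test). Of 12 stem cell markers 11 were listed (Sox2, which has no intron, was not), with a summed level between 4877 and 5162 CPM in every library. Tfcp2l1 passed with more spliced reads (log2 fold change 0.23, adjusted p = 0.0354, edgeR) and Fgf4 with fewer (-0.39, adjusted p = 0.0301, edgeR). That is 1 of 11 in each direction, against 1.96% more and 6.76% fewer among all genes. Splicing efficiency, defined below, was lower in 1 of 11, Pou5f1 (log2 odds ratio 0.79, adjusted p = 0.00259, edgeR), against 6.98% of all genes. Defining markers of fibroblasts (1 of 7 listed), primitive endoderm (2 of 6), trophectoderm (1 of 5) and early differentiation (2 of 6) summed to between 1.16 and 4.73 CPM per list and library, and Col1a1, Gata6, Cdx2 and T were not listed.

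Splicing efficiency is the share of reads at both junctions of an intron that are split, from 0 (unspliced) to 1 (fully spliced). At 4 introns of 3 subunit genes (3 of 44, against 5.42% of all genes with a tested intron) it fell in the knockdown: introns 13 and 14 of Ruvbl2, intron 11 of Mta1 and intron 6 of Smarcd3. The exon junctions that form when these introns are removed are shown because they place the affected sites in the messages. Each is 40 bases of the spliced transcript of the mouse GENCODE M21 annotation (GRCm38), sense strand, 5′ to 3′, with the last 3 exon bases before the intron and the first base after it in capitals.
Ruvbl2 intron 13: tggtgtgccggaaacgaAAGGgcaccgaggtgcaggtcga
Ruvbl2 intron 14: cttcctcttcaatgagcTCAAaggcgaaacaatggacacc
Mta1 intron 11: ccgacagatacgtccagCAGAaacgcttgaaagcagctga
Smarcd3 intron 6: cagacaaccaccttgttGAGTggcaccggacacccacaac
All 4 introns lie within the coding region of their transcript model. The introns themselves are short, with lengths of 178, 86, 339 and 145 nt in the order printed. GC content of up to 100 exon bases on each side was 58%, 46%, 46.3% and 51%, beside a median of 56.5% for the 1084 introns called lower among all genes. Positions below are those of the deposited tables, whose build is GRCm39 per the submitters' processing notes.

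Of the members' 593 introns, 575 had enough reads to be tested. Efficiency was lower at 4 of them (0.696%) and higher at 1 (0.174%), against 1.71% lower and 0.0442% higher among all 63309 tested introns (adjusted p under 0.05, edgeR), or 5 against 1.76% in either direction. Without adjustment, 43 member introns (7.48%) were lower and 9 (1.57%) higher at p under 0.05, against 8.11% and 1.61% of all tested introns. In 127 introns (22.1%) both knockdown libraries lay below both controls, near the 24.3% of all introns, and in 86 (15.0%) both lay above, beside 13.1%. The mean over the members' listed introns was 0.916 and 0.901 in the controls against 0.910 and 0.893 in the knockdown, a change of -0.00704 with overlapping groups. Over all introns it was 0.903 and 0.893 in the controls against 0.893 and 0.875 in the knockdown. That is a change of -0.0139, in which knockdown 1 was not below control 2.

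Summed over a gene's introns, efficiency fell in 4 of the 44 genes (9.09%), Ruvbl2, Mcrs1, Mta1 and Smarcd3, against 6.98% of 9370 genes (edgeR, adjusted p under 0.05). No member passed in the other direction, with edgeR or DESeq2, and none did at an unadjusted p under 0.05. Spliced reads, which stand for mature RNA, fell in 3 genes (6.82%), Ruvbl2, Mta1 and Mcrs1, against 6.76% of 9474 genes, and rose in 1 (2.27%), Nfrkb, against 1.96%. In either direction that is 4 genes, against 8.72%. The 3 genes with fewer spliced reads were all among the 4 with lower efficiency; spliced reads enter both measures. On the log2 scale 34 of 44 genes lay within 0.2 of 0, and the share of all genes that did is not given here. The median log2 fold change was -0.0031, beside 0.0054 over all genes. The largest of the 44 was 0.65 in Chd3, which did not pass. In total RNA of a culture, fewer cells with a transcript and less of it per cell cannot be told apart.

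**Figure D1:**
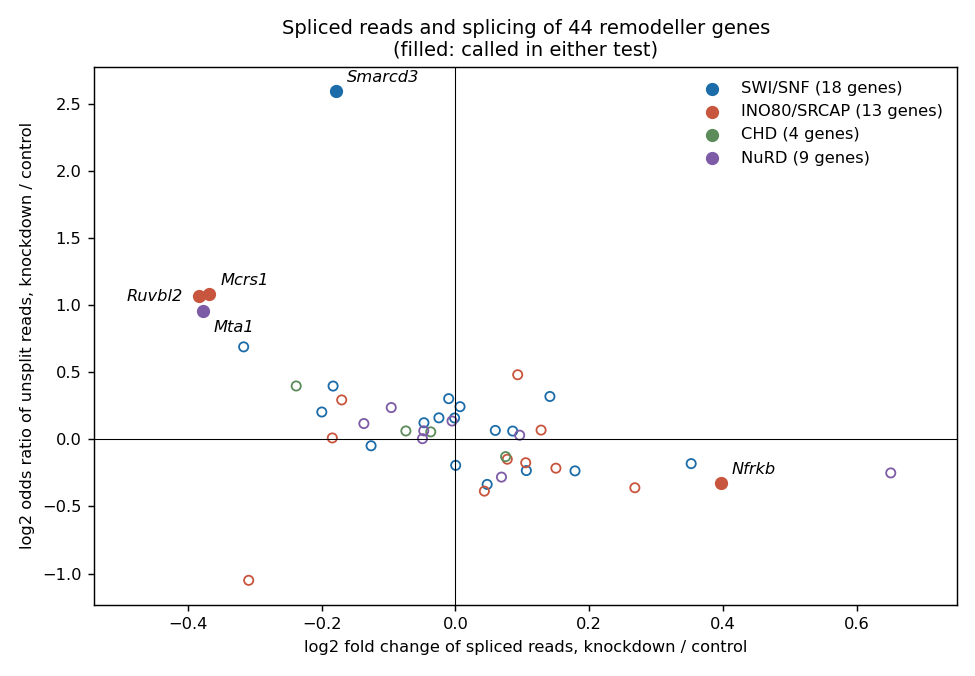
Log2 fold change of spliced reads (x axis) against the log2 odds ratio of unsplit to split reads (y axis, above 0 means less complete splicing in the knockdown) for the 44 genes, coloured by complex; filled points passed either test. Ruvbl2, Mcrs1 and Mta1 sit together at the upper left, Smarcd3 alone at the top at 2.60, and Nfrkb to the right at 0.40.

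Of the 5 genes called in either gene test, 3 were in the INO80 and SRCAP group. Ruvbl2 and Mcrs1 were lower in both tests, while Nfrkb had more spliced reads. The share of all genes called in either gene test is not given here. The INO80 and SRCAP group holds 13 of the 44 genes, and whether calls were concentrated in it was not tested. Ruvbl2 (ENSMUSG00000003868) codes for an AAA+ ATPase that forms a ring with Ruvbl1 in these complexes and in EP400. Its spliced reads were 589 and 594 CPM in the controls against 477 and 443 CPM in the knockdown. The groups did not overlap, and the log2 fold change was -0.38 (SE 0.07, adjusted p = 0.000755, edgeR). Efficiency over its 11 listed introns was 0.965 and 0.952 in the controls against 0.926 and 0.909 in the knockdown, a log2 odds ratio of 1.07 (SE 0.22, adjusted p = 3.97e-05, edgeR). In 7 of the 11 introns both knockdown libraries lay below both controls, and in none above. Among all tested introns 24.3% lay below and 13.1% above. Introns of the same gene come from the same libraries, so such counts are not replication.

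The last intron of Ruvbl2 (intron 14 of 14 in ENSMUST00000107771; chr7:45071430-45071515, minus strand) was already incompletely spliced in the controls, at 0.706 and 0.700. In the knockdown it stood at 0.514 and 0.316, so mean efficiency changed from 0.703 ± 0.00399 to 0.415 ± 0.14 (SD, n = 2). The log2 odds ratio was 1.73 (SE 0.39, adjusted p = 0.00347, edgeR). Both knockdown libraries were far below the controls and also differed from each other. Most of its unsplit reads lay at the 5′ junction, 151 and 105 in the controls against 255 and 185 in the knockdown. At the 3′ junction they numbered 44 and 20 in the controls against 60 and 49.

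Intron 13 of Ruvbl2 (chr7:45071631-45071808) was spliced at 0.936 and 0.909 in the controls against 0.842 and 0.802 in the knockdown. Its log2 odds ratio was 1.38 (SE 0.31, adjusted p = 0.00379, edgeR). Here unsplit reads lay mostly at the 3′ junction, 102 and 93 in the controls against 229 and 158 in the knockdown. At its 5′ junction they numbered 45 and 52 in the controls against 49 and 80 in the knockdown. Of the neighbouring introns, 13 had most unsplit reads at its 3′ end and 14 at its 5′ end, the ends that flank the exon between them. Ruvbl1, the partner of Ruvbl2, had 232 and 231 CPM in the controls against 252 and 253 in the knockdown, a log2 fold change of 0.10 (SE 0.08, adjusted p = 0.492, edgeR).

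Mcrs1 (ENSMUSG00000037570) codes for an INO80 subunit that is also part of the NSL complex. It had 119 and 128 CPM in the controls against 99.3 and 94.9 in the knockdown. The log2 fold change was -0.37 (SE 0.09, adjusted p = 0.0119, edgeR). Efficiency over its 6 listed introns was 0.986 and 0.978 in the controls against 0.961 and 0.966 in the knockdown, with a log2 odds ratio of 1.09 (SE 0.29, adjusted p = 0.00396, edgeR). No single Mcrs1 intron passed, and in 5 of 6 both knockdown libraries lay below both controls, against 24.3% of all tested introns.

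Nfrkb (ENSMUSG00000042185), a metazoan INO80 subunit, went the other way. Its spliced reads were 73.7 and 84.5 CPM in the controls against 97.6 and 113 CPM in the knockdown, a log2 fold change of 0.40 (SE 0.11, adjusted p = 0.0185, edgeR). Its efficiency was 0.851 and 0.864 in the controls against 0.884 and 0.882 in the knockdown, above the controls in both libraries, but this did not pass (log2 odds ratio -0.32, adjusted p = 0.735, edgeR). Of its 14 tested introns 6 were above both controls in both knockdown libraries and none below. Among all tested introns 13.1% were above and 24.3% below.

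In Ino80e, which codes for a small INO80 subunit, the 1 intron called higher is intron 1 of a minor model, ENSMUST00000125624 (chr7:126461190-126461445, minus strand, 256 nt). It had no split read in either control, 6 and 20 in the knockdown, and between 70 and 114 unsplit reads in every library (adjusted p = 0.000868, edgeR). Control efficiency was 0 in both libraries, against 0.0789 and 0.204, and no fold is given. The intron overlaps the gene Hirip3 on the opposite strand, and whether reads were counted by strand is not given in the sources used here, so their gene of origin is uncertain. Only 2 of the 17 annotated Ino80e introns were listed, and 16 of the 17 overlap an exon of some model at least in part.

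The remodelling ATPases Ino80, Srcap and Ep400 had no call. Ino80 itself had 330 and 339 CPM in the controls against 293 and 310 in the knockdown (log2 fold change -0.17, SE 0.07, adjusted p = 0.198, edgeR). Srcap, which exchanges H2A.Z into nucleosomes, had 109 and 113 CPM against 102 and 95.7 (log2 fold change -0.18, SE 0.09, adjusted p = 0.275, edgeR). Of its 25 introns 18 are listed under an overlapping gene too and were left out of these sums. Ep400 had 524 and 536 CPM against 579 and 597 (log2 fold change 0.13, SE 0.07, adjusted p = 0.312, edgeR). In all 3 the knockdown libraries did not overlap the controls, while among all genes 24.6% did not overlap with fewer and 24.0% with more spliced reads. The other 7 genes of the group (Ino80b, Ino80c, Ino80d, Ino80e, Ruvbl1, Tfpt and the deubiquitinase Uchl5) had log2 fold changes between -0.31 and 0.27, and none passed.

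**Figure D2:**
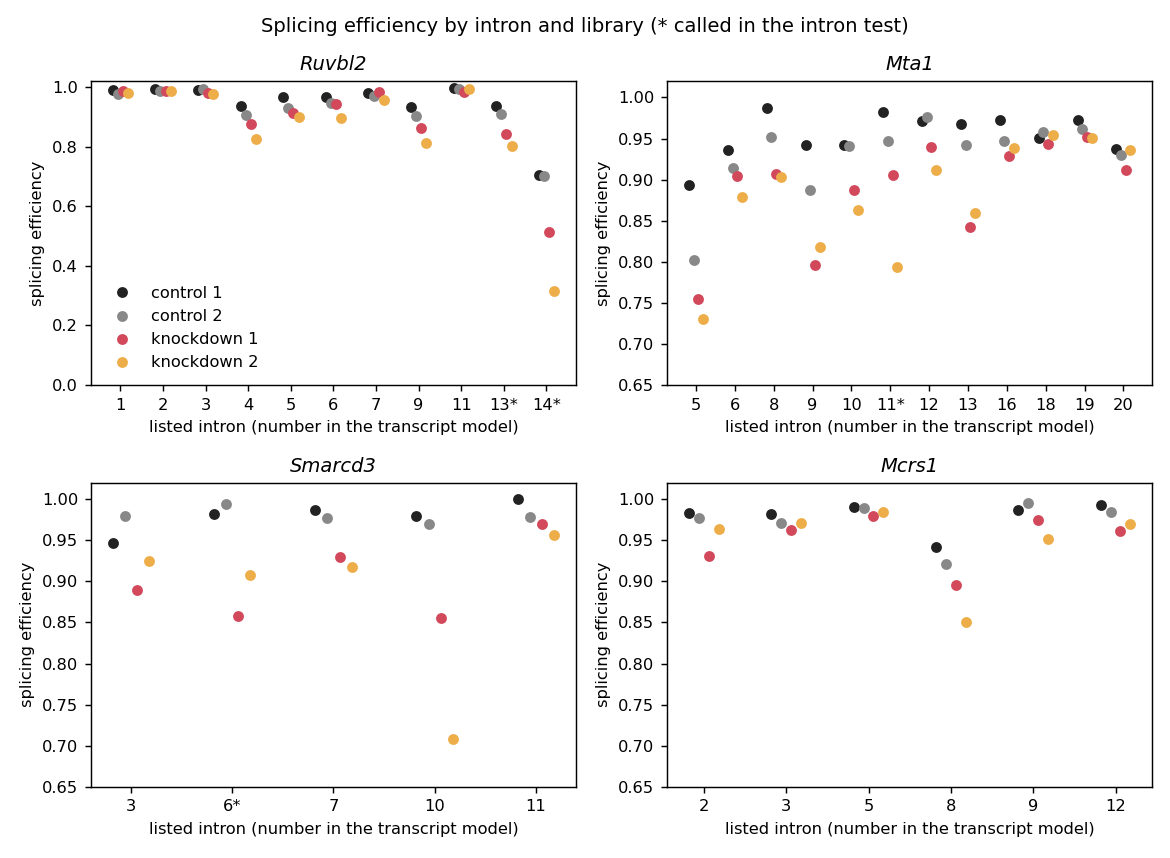
Splicing efficiency (y axis) of each listed intron (x axis, numbered in its transcript model; asterisks mark introns that passed the test) of Ruvbl2, Mta1, Smarcd3 and Mcrs1 in the 4 total RNA libraries. The y axis starts at 0 for Ruvbl2 and at 0.65 for the others; both knockdown libraries lie lowest at most introns of all 4 genes, with the widest gap at intron 14 of Ruvbl2.

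In NuRD, the change was in Mta1 (ENSMUSG00000021144), 1 of 3 related scaffold subunits that bind the histone deacetylases. Mta1 had 203 and 194 CPM in the controls against 158 and 152 CPM in the knockdown, a log2 fold change of -0.38 (SE 0.08, adjusted p = 0.00374, edgeR). Efficiency over its 12 introns was 0.956 and 0.938 in the controls against 0.907 and 0.899 in the knockdown (log2 odds ratio 0.96, SE 0.24, adjusted p = 0.00134, edgeR). Both knockdown libraries were below both controls at 10 of 12 introns, against 24.3% of all tested introns. Intron 11 of 20 in ENSMUST00000009099 (chr12:113093815-113094153, plus strand) was spliced at 0.982 and 0.947 in the controls against 0.906 and 0.794 in the knockdown. Its log2 odds ratio was 2.29 (SE 0.48, adjusted p = 0.00114, edgeR), from 12 and 23 unsplit reads in the controls against 44 and 61 in the knockdown.

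The paralogues of Mta1 had no call. Mta2 had 317 and 334 CPM in the controls against 323 and 316 in the knockdown (log2 fold change -0.05, adjusted p = 0.795, edgeR), and Mta3 had 195 and 182 against 219 and 190 (0.10, adjusted p = 0.599). The differences between paralogues were not tested. Chd4, the main NuRD ATPase of these cells, had 1401 and 1371 CPM in the controls against 1369 and 1262 in the knockdown (log2 fold change -0.10, SE 0.06, adjusted p = 0.454, edgeR). Its efficiency stayed between 0.977 and 0.984 in every library. Its paralogue Chd3, with 4 of 43 annotated introns listed, was at 7.51 and 6.81 CPM against 13.2 and 9.55 (log2 fold change 0.65, SE 0.22, adjusted p = 0.0705, edgeR). The methyl-CpG-binding domain family members Mbd2 and Mbd3 and the linkers Gatad2a and Gatad2b had log2 fold changes between -0.14 and 0.07, with no call.

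In SWI/SNF, no gene passed in spliced reads, where edgeR gave 3 of 18 genes with fewer and 2 with more at an unadjusted p under 0.05, against 12% and 7.72% of all genes, and DESeq2 called none. Smarcd3 (ENSMUSG00000028949), 1 of 3 exchangeable SMARCD subunits and the one typical of heart and neural complexes, fell in splicing efficiency. It stood at 0.982 in both controls and at 0.905 and 0.895 in the knockdown (log2 odds ratio 2.60, SE 0.45, adjusted p = 6.38e-07, edgeR). Spliced reads were few, at 19.9 and 23.9 CPM in the controls against 20.1 and 18.9 in the knockdown (log2 fold change -0.18, SE 0.16, adjusted p = 0.601, edgeR). Intron 6 of 12 in ENSMUST00000030791 (chr5:24800243-24800387, minus strand) was spliced at 0.982 and 0.994 in the controls against 0.858 and 0.908 in the knockdown. Its log2 odds ratio was 3.38 (SE 0.80, adjusted p = 0.00602, edgeR), and rests on 3 and 1 unsplit reads in the controls against 22 and 10. In all 4 tested introns of Smarcd3 both knockdown libraries lay below both controls, against 24.3% of all tested introns.

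The other SMARCD genes did not pass. Smarcd1, the abundant paralogue, had an efficiency of 0.981 and 0.976 in the controls against 0.974 and 0.970 in the knockdown (log2 odds ratio 0.40, SE 0.25, adjusted p = 0.579, edgeR). Smarcd2 had 0.958 and 0.949 against 0.934 and 0.920 (log2 odds ratio 0.69, SE 0.29, adjusted p = 0.175, edgeR). In both, the knockdown libraries were below the controls, as in 27.1% of all genes.

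Smarca4, the ATPase of SWI/SNF, had 897 and 919 CPM in the controls against 923 and 860 in the knockdown (log2 fold change -0.05, SE 0.07, adjusted p = 0.768, edgeR). The groups overlapped, and efficiency was between 0.975 and 0.981 in every library. The BAF-specific subunit Arid1a had 793 and 827 CPM against 720 and 711 (log2 fold change -0.20, SE 0.07, adjusted p = 0.0654, edgeR). Smarcc1, a core scaffold, had 1065 and 1075 CPM against 1175 and 1162 (log2 fold change 0.11, SE 0.06, adjusted p = 0.385, edgeR). The PBAF subunit Pbrm1 was above both controls in both knockdown libraries at 11 of its 31 introns and below at 2. Smarcc1 was above at 10 and below at 0 of 24. Among all tested introns 13.1% were above and 24.3% below. No intron of either gene passed, and both genes were picked for this after their values were seen. Introns of 1 gene share its reads and libraries and are not replicates. The 18 genes ranged in log2 fold change from -0.32 (Smarcd2) to 0.35 (Brd9), 9 below and 9 above 0.

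The 4 CHD members outside NuRD (Chd1, Chd2, Chd7 and Chd8) had no call in any of the 3 tests. Of their 102 tested introns, 3 were lower and 1 higher at an unadjusted p under 0.05 with edgeR, against 8.11% and 1.61% of all tested introns, and DESeq2 called none. Chd1, which binds methylated H3K4 and has been linked to open chromatin in stem cells, had 290 and 275 CPM in the controls against 300 and 304 in the knockdown (log2 fold change 0.07, SE 0.07, adjusted p = 0.65, edgeR). Chd2 had the lowest efficiency of the group, 0.815 and 0.776 in the controls against 0.811 and 0.765 in the knockdown. Chd7 and Chd8 had log2 fold changes of -0.24 and -0.04.

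**Figure D3:**
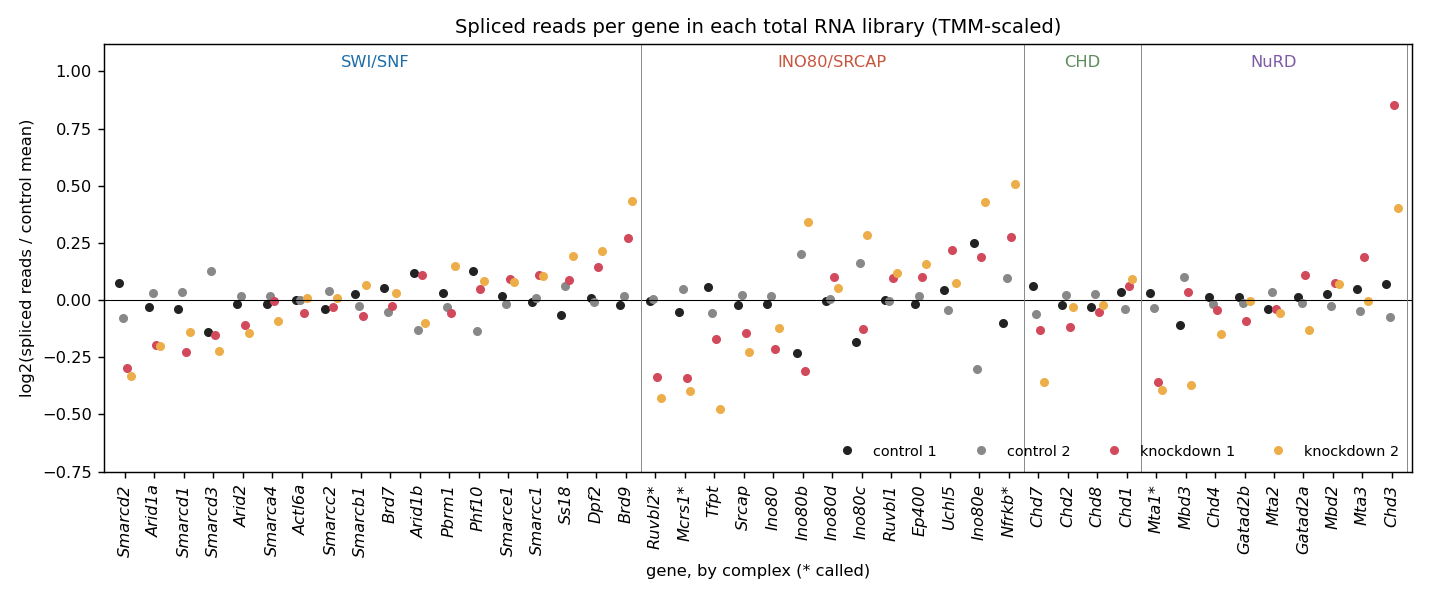
Spliced reads of each gene in each total RNA library, as log2 of the TMM-scaled level over the mean of the 2 controls (y axis), with genes on the x axis ordered within each complex by fold change and asterisks on those that passed. Ruvbl2, Mcrs1 and Mta1 lie below their controls in both knockdown libraries and Nfrkb above; 34 of the 44 genes have a log2 fold change within 0.2 of 0.

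Levels were compared between genes as CPM per listed intron. In the controls the highest were Arid1a at 54 ± 1.63 and Ruvbl2 at 53.7 ± 0.326 (SD, n = 2), which do not differ beyond their spread. Smarcb1 (48.0 ± 1.24), Smarcc1 (44.6 ± 0.313), Chd4 (43.3 ± 0.649) and Actl6a (41.2 ± 0.0635) followed. Among paralogues, Smarcc1 stood far above Smarcc2 (4.49 ± 0.169), Smarcd1 (32.7 ± 1.18) above Smarcd2 (11.2 ± 0.839) and Smarcd3 (4.38 ± 0.563), and Chd4 above Chd3 (1.79 ± 0.124). The ATPase Smarca2 was not listed. In the knockdown Ruvbl2 was at 41.8 ± 2.15 per intron, below Arid1a at 47.7 ± 0.435, and Mta1 moved from 16.5 ± 0.521 to 12.9 ± 0.316. The lowest genes were Ino80e at 1.24, Chd3 at 1.79 and Ino80b at 2.34. The values of Ino80e and Ino80b rest on 2 introns and 1 intron, and Ino80e had 307 long reads in the control library, so they do not stand for the gene's whole output.

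Short introns of the remodellers are set beside those of all genes. Among introns up to 100 nt, 1 of 37 member introns was called lower (2.70%), against 8.28% of all such introns (edgeR). Mean efficiency of the members' shortest introns was 0.917 and 0.886 in the controls against 0.914 and 0.879 in the knockdown, a change of -0.00504 with overlapping groups. The same class over all genes had 0.903 and 0.889 against 0.859 and 0.837, a change of -0.0482. Above 100 and up to 300 nt, 2 of 107 member introns were called lower (1.87%), against 5.51% of all, with changes of -0.0124 and -0.0385. Above 300 and up to 1000 nt the shares were 1 of 139 and 1.01%, and none of the 292 member introns above 1000 nt was called lower, against 0.221% of all such introns. The share of short introns was close, 6.43% of the members' tested introns and 6.72% of all being up to 100 nt. Exon GC around the members' shortest introns had a median of 49% against 54.5% in that class over all genes, and they had a median of 399 junction reads per library against 226. The part of GC content and depth in the difference was not tested, nor was the difference itself.

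**Figure D4:**
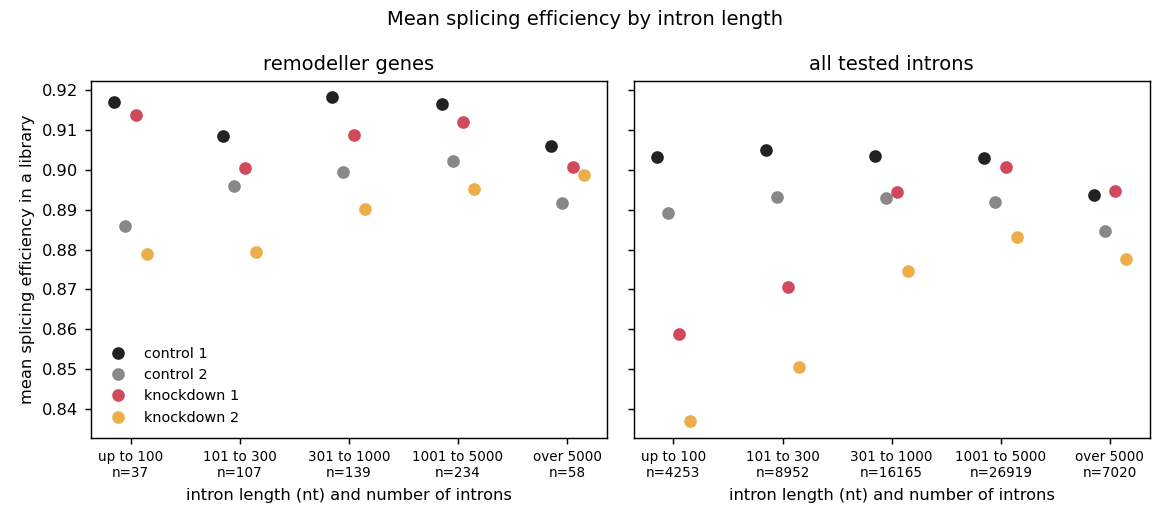
Mean splicing efficiency in each total RNA library (y axis) by intron length class (x axis, with the number of introns), for remodeller genes (left) and all tested introns (right). At up to 100 nt the knockdown libraries lie at 0.859 and 0.837 for all introns, below both controls, and at 0.914 and 0.879 for remodeller genes, whose controls lie at 0.917 and 0.886.

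The tables list few introns that overlap an exon of another transcript model. Of 1054 introns annotated for the 44 genes in GENCODE M21, 386 overlap such an exon, and 21 of these were listed. The overlap can be partial and with an exon of either strand. Introns with an annotated retained form are among the 386, but how many they are was not counted. At most 21 of them were thus open to the intron tests. The long reads, which count whole transcript models, see some of them. For Smarcd3, 5 of 16 annotated introns were listed, and for Ruvbl2 11 of 22.

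Among 54 other genes of remodeller complexes outside the 44, 50 were listed and 49 tested for spliced reads. Only Bicra, a subunit of the BRD9-containing SWI/SNF complex, passed, against 8.72% of all genes in either direction. It had 25.0 and 25.4 CPM in the controls against 17.5 and 18.3 in the knockdown (log2 fold change -0.52, SE 0.15, adjusted p = 0.0352, edgeR). Efficiency was lower in 2 of 50, against 6.98% of all genes: Bicra and the acetyltransferase Kat5 (log2 odds ratios 1.03 and 0.99, adjusted p = 0.0387 and 0.0182, edgeR). At single introns 2 of 460 were lower, against 1.71% of all. Their median log2 fold change was -0.02.

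The Nanopore libraries held 3080426 control and 1874851 knockdown reads, of which 6656 and 3783 fell on the 44 genes. With 1 library per group these values have no replicate check, and intervals cover counting error only. The control library is called control in its title, but its source label names knockdown replicate 1. Its origin is thus uncertain from the labels, which bears on every long-read comparison below. At least 20 reads over both libraries were found for 41 genes; Chd3, Smarcd2 and Smarcd3 had fewer. A difference of 2-fold or more was seen in 1 gene higher and 1 lower, against 2.2% higher and 4.16% lower among 9616 genes. Brd9, which reads acetylated histones in a SWI/SNF variant, had 28 control and 43 knockdown reads (log2 ratio 1.33), or 9.09 CPM (95% Wilson interval 6.29 to 13.1) and 22.9 CPM (17.0 to 30.9). Arid1b had 33 and 9 reads (log2 ratio -1.10), or 10.7 CPM (7.63 to 15.0) and 4.80 CPM (2.53 to 9.12). In total RNA, Brd9 had 29.4 and 30.2 CPM against 36.7 and 40.6 (log2 fold change 0.35, adjusted p = 0.108, edgeR) and Arid1b a log2 fold change of 0.01. With at least 50 reads required, or a pseudocount of 5 reads, Brd9 alone was 2-fold changed.

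For the genes called in total RNA, Ruvbl2 had 613 control and 280 knockdown long reads, or 199 CPM (184 to 215) and 149 CPM (133 to 168). Mcrs1 had 61.7 CPM (53.5 to 71.1) against 43.7 (35.2 to 54.3), with intervals that overlap. Mta1 had 22.7 CPM (18 to 28.7) against 28.3 (21.6 to 37.0), the opposite side of its total RNA value but with overlapping intervals. Nfrkb had 25.0 CPM against 30.4, with overlapping intervals. Lower values with intervals apart were also found for Arid1a (156 against 100.8 CPM), Smarca4 (64.3 against 43.7 CPM) and Ep400 (41.6 against 25.6 CPM), which with Ruvbl2 makes 4 genes lower, beside 1 higher (Brd9), against 5.99% lower and 4.26% higher among all 9616 genes. Of these, Smarca4 and Ep400 had total RNA log2 fold changes of -0.05 and 0.13.

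Reads on models annotated as retained intron made up 7.26% of the members' long reads in the control (6.66 to 7.90) and 8.04% in the knockdown (7.21 to 8.95), beside 6.24% and 6.64% over all genes. At least 10 such reads were found for 16 genes, and intervals were apart in 2, both higher in the knockdown, against 3.95% higher and 1.09% lower among 2381 genes with as many such reads. Arid1a went from 10.2% (7.81 to 13.2) to 18.5% (13.6 to 24.7), nearly all on the model ENSMUST00000138473, with 48 and 35 reads. Mcrs1 went from 3.68% (1.80 to 7.41) to 13.4% (7.66 to 22.4), on 7 and 11 reads. Srcap had 12.4% (8.77 to 17.2) and 21.9% (15.3 to 30.4). Nfrkb, with the highest share in the control, had 54.5% (43.5 to 65.2) and 40.4% (28.6 to 53.3). Ruvbl2 had only 1 and 2 reads on such models.

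**Figure D5:**
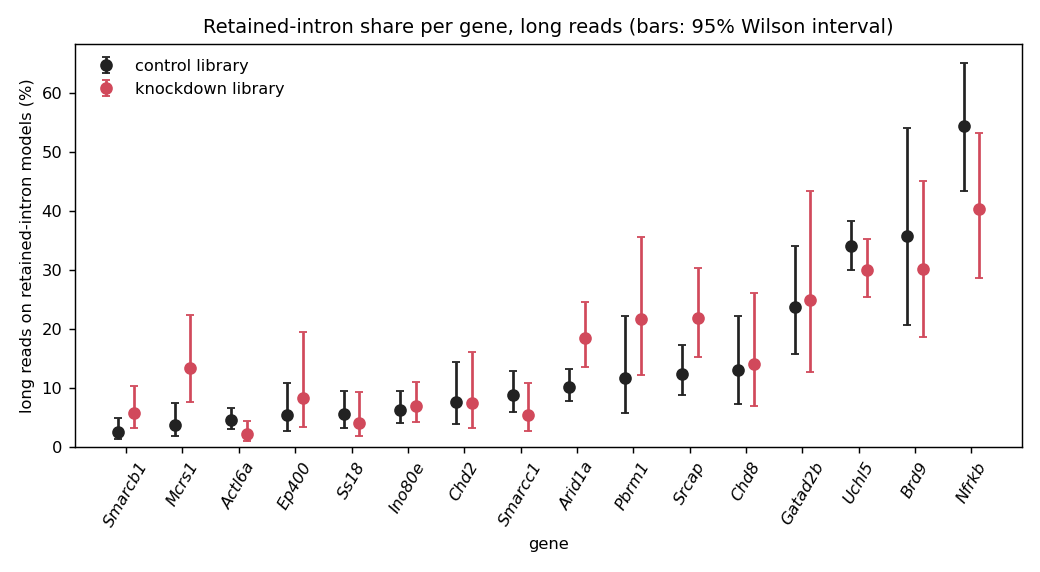
Share of long reads on retained-intron models (y axis, percent, with 95% Wilson intervals) in the control and knockdown library for the 16 genes with at least 10 such reads (x axis). Arid1a and Mcrs1 are higher in the knockdown library with intervals apart; Nfrkb, Uchl5 and Brd9 have high shares in both.

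Of 87 member transcripts with at least 20 long reads, 3 were 2-fold or more higher and 5 lower, against 3.32% and 5.8% of 13807 transcripts. Among those with at least 50 reads, the lowest log2 ratios were for coding models of Smarca4 (ENSMUST00000174008, 50 control and 15 knockdown reads, -0.99) and Mcrs1 (ENSMUST00000041190, 136 and 43, -0.93). Models of Arid1a (ENSMUST00000008024, 118 and 40, -0.83; ENSMUST00000145664, 193 and 71, -0.72) and Srcap (ENSMUST00000187040, 65 and 23, -0.76) followed. The highest was for Chd4 (ENSMUST00000112390, 60 and 71, 0.96), then for models of Ino80e (0.55 and 0.52), Pbrm1 (0.51) and Mbd3 (0.39). Within Chd4, the share of reads on ENSMUST00000112390 was 26.5% (21.2 to 32.7) in the control and 45.2% (37.6 to 53) in the knockdown. The similar model ENSMUST00000112392 went from 30.1% (24.5 to 36.4) to 15.9% (11 to 22.5). Within Mcrs1, the share on ENSMUST00000041190 went from 71.6% (64.8 to 77.5) to 52.4% (41.8 to 62.9). These shares are given because their intervals were apart, while most other member models had overlapping intervals. How often such shares were apart over all genes is not given here. How reads were assigned among similar models is not given in the sources used here.

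Several calls depended on single libraries or on the tool. Of the 5 introns called, DESeq2 kept only that of Ino80e, with adjusted p between 0.0678 and 0.119 for the 4 lower introns. Of the 575 member introns, 0 passed with edgeR without control replicate 1 (35 at an unadjusted p under 0.05); 3 passed without control replicate 2, 9 without knockdown replicate 1 and 2 without knockdown replicate 2. Of the 4 genes with lower efficiency only Smarcd3 passed without control replicate 1. Ruvbl2 was then at adjusted p = 0.196, Mta1 at 0.519 and Mcrs1 at 0.579, and in spliced reads only Ruvbl2 passed, Mta1 being at 0.19 and Mcrs1 at 0.104. Mcrs1 also lost its efficiency call without knockdown replicate 1 (adjusted p = 0.0689). In spliced reads without control replicate 2, Mta1 (adjusted p = 0.067) and Mcrs1 (0.354) did not pass, and without control replicate 1 Nfrkb (0.478) did not. When each gene was measured at its best covered intron alone, none of the 4 passed in spliced reads (adjusted p from 0.0878 to 0.821, edgeR).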

How the data were processed

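SPLICE-q, per the labels, made the deposited counts of reads split or unsplit at both junctions of an intron, and its score, a deposited fraction that equalled the split share in every row. Every listed junction had at least 10 reads. Long reads were deposited as counts of reads per transcript. The submitters' processing notes name GRCm39, minimap2 and SAMtools; settings, annotation and use of strand are not given in the sources used here. Both long-read samples, the control too, carry knockdown replicate 1 as their source in the labels. The assays were therefore not paired, and the origin of the control long-read library is uncertain from the labels. Introns were reduced to 1 entry per position and kept if listed in all 4 libraries; 43 member introns listed in some only were left out. Counts were tested with edgeR 4.0.16 in R 4.3.3 and Benjamini-Hochberg adjustment over all features at 0.05. For splicing, the model had a term per library, one for unsplit reads and one for unsplit reads in the knockdown, with at least 10 split and 10 unsplit reads. Introns listed under several genes were left out of gene sums. Spliced reads were 5′ split reads per gene with TMM and edgeR's expression filter. CPM are these reads scaled to 1000000 per library. Introns were matched to GENCODE M21 by transcript, number and length (99.6%). Long-read ratios used a pseudocount of 0.5 reads, and shares have 95% Wilson intervals (scipy 1.17.1). DESeq2 1.42.0, single junctions, other filters and scalings, each replicate left out and a replicate block were alternatives. The scripts were tested on simulated data. Replicates differed by more than sampling noise (chi-square per degree of freedom 2.89 for the controls and 9.12 for the knockdown). Named are Son, members with a call, the ATPases Smarca4, Ino80, Srcap, Ep400, Chd1 and Chd4, members 2-fold changed in long reads, and up to 5 transcripts per direction with at least 50 reads; other genes were named after their values were seen. Members, lists and rules were chosen with earlier results of these data known. Junction sequences are shown in place of intron sequences, since a GRCm39 genome was not used here.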

Additional observations from a re-analysis of the deposited data

How the results depend on the processing

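Of the 575 member introns, 5 were called. The number was 1 at 3′ junctions alone (intron 13 of Ruvbl2), 0 at 5′ junctions alone (41 at an unadjusted p under 0.05 with edgeR), 1 with DESeq2 (Ino80e), 11 with a replicate block (2.57% of all introns in that fit) and from 0 to 9 with a replicate left out, the lowest without control replicate 1. Same-numbered samples share only a number: their deviations from group means correlated at 0.017 over genes and 0.050 over introns, in 2 pairs. With the replicate block 6 genes passed in efficiency and 5 in spliced reads, where 4 and 4 had. Leaving out a replicate gave 1 to 4 genes in efficiency and 1 to 12 in spliced reads, the highest without knockdown replicate 1 (12) and without knockdown replicate 2 (9). In a fit without 1 sample the lone library is assumed to vary like the other group. Scaling split and unsplit columns separately shifted the all-gene median log2 odds ratio from 0.09 to -0.05 (of all introns from 0.12 to -0.03) and gave 4 genes lower and 2 higher, in place of 4 and 0; relative to that shift the 4 calls held. With the best covered intron alone no gene passed in spliced reads (8 at an unadjusted p under 0.05 with edgeR), and Chd1 (-0.0185) and Smarca4 (0.0523) changed sign. The change in mean efficiency ranged from -0.016 to 0.00194 with a replicate left out, and over introns up to 300 nt, a summary chosen after seeing the data, from -0.0229 to 0.00187, so its sign depends on the libraries. With a pseudocount of 5 reads, or at least 50 reads, 1 gene was 2-fold changed in long reads instead of 2. The retained-intron difference of 0.779 points was 0.648 over genes with at least 20 reads in each library and 1.13 with other noncoding models. Counting shared introns for each gene, also chosen after seeing the data, left 4 genes in both tests. In long reads 3 of 44 genes had under 20 reads.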
